A study of Homo sapiens with 48 samples.

Results

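The 9 genes described here are the core of the NRF2 antioxidant response: the regulators NFE2L2 and KEAP1, the glutathione genes GCLC, GCLM and SLC7A11, the thioredoxin genes SRXN1 and TXNRD1, and the detoxifying enzymes NQO1 and HMOX1. They were taken by name from 19509 genes with counts, and all 9 were among the 9991 genes tested. GCLC was chosen by its own values: higher mRNA and skipped exons after SF3B1 knockdown in 4OHT. The 4OHT siNT libraries are one side of that choice, so GCLC is described without a test in every comparison that holds them and tested only in DMSO. The other 8 genes were taken with it as members of the pathway. All 48 libraries came from IMR90 ER:RAS cells, human lung fibroblasts that carry HRAS G12V fused to the oestrogen receptor (ER). 4-hydroxytamoxifen (4OHT) switches the fusion on, and DMSO is its solvent control. Cells spent 6 days in DMSO or 4OHT, were transfected with siRNAs and stayed another 2 days in medium with 0.5% FBS. The 6 groups were DMSO siNT, DMSO siSF3B1, DMSO siRBM39, 4OHT siNT, 4OHT siSF3B1 and 4OHT siRBM39, each of 8 libraries. Each group held 2 siRNAs (siNT1 and siNT2, siSF3B1-13 and siSF3B1-16, siRBM39-06 and siRBM39-08) with 4 libraries each. Both arms carry the ER:RAS transgene, so DMSO is an uninduced arm of the same line and not a line without the oncogene. The comparisons ask how loss of either splicing factor changes RNA in cells with and without oncogenic RAS.

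NRF2, the product of NFE2L2, is a transcription factor that in resting cells is bound by KEAP1 and passed to a ubiquitin ligase for destruction. Oxidants and electrophiles modify KEAP1, NRF2 accumulates, pairs with small MAF proteins and binds antioxidant response elements near its targets. Those targets make glutathione, reduce thioredoxin and clear quinones and haem. The control acts largely on NRF2 protein, which RNA sequencing does not measure. SF3B1 is the part of the U2 small nuclear ribonucleoprotein that holds the branch point and 3′ splice site. RBM39 is an RNA-binding protein that works with U2AF and SF3B1 at 3′ splice sites.

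Acceptor sites of 7 exons whose inclusion moved are shown first, because both knockdowns act on 3′ splice sites. They are a selection: the GCLM exons listed at 150 nt and 85 nt also moved with siSF3B1 and are not drawn. Each line holds the last 40 bases of the intron in lower case and the first 12 bases of the exon in capitals, 5′ to 3′ on the strand of the gene, read from GRCh37. All 7 exons are internal.
GCLC 114-nt exon, chr6:53380907-53381020, minus strand: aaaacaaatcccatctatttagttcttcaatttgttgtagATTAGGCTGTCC
GCLC 82-nt exon, chr6:53365230-53365311, minus strand: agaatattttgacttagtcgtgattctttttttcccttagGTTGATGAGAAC
GCLM 66-nt exon, chr1:94370079-94370144, minus strand: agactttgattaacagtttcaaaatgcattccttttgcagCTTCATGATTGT
NQO1 114-nt exon, chr16:69748867-69748980, minus strand: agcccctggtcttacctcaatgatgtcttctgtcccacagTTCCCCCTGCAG
NQO1 102-nt exon, chr16:69746931-69747032, minus strand: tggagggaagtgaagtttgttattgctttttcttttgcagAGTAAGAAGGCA
SLC7A11 124-nt exon, chr4:139106275-139106398, minus strand: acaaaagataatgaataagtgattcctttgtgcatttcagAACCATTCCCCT
SLC7A11 97-nt exon, chr4:139103451-139103547, minus strand: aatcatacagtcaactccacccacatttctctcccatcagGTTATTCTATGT
The GCLC 114-nt exon, the GCLM exon and both NQO1 exons have lengths that are multiples of 3, while the other 3 do not. Pyrimidines made up 55% to 80% of the last 20 intron bases of these 7 exons. They made up 50% for the GCLM 85-nt exon. For the 113-nt, 183-nt and 121-nt exons of GCLC, which were included in nearly all reads, they made up 70%, 65% and 60%.

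The knockdowns were visible in the labelled groups. Levels are counts scaled by the trimmed mean of M values (TMM) to each library's total, as CPM, with the mean ± SD over 8 libraries. siSF3B1 took SF3B1 from 358.6 ± 25.4 to 32.8 ± 1.57 CPM in DMSO and from 328.0 ± 8.26 to 27.3 ± 1.90 in 4OHT. siRBM39 took RBM39 from 170.3 ± 9.77 to 27.4 ± 2.18 CPM in DMSO and from 120.2 ± 4.31 to 16.3 ± 1.73 in 4OHT. With siSF3B1, RBM39 itself rose to 302.5 CPM in DMSO and 250.7 in 4OHT. Libraries held 31467221 to 52734636 gene counts. Replicate 4 of siRBM39-08 in 4OHT stood apart: its SF3B1 level was 224.5 CPM, below every library outside the siSF3B1 groups. The 10 fibroblast markers were all detected, with summed levels of 53380 to 60550 CPM in DMSO siNT and 14850 to 15630 CPM in 4OHT siNT. Of 12 listed markers of epithelial, endothelial and blood cells 11 were found by name, and they summed to 4.35 to 12.6 CPM outside 4OHT siRBM39 and to 6.63 to 42.5 CPM within it. The highest sum came from the library that stood apart, with KRT5 at 30.2 CPM, and SFTPC, PTPRC, CD3E and MS4A1 had a median of 0. Values without that library are given with the siRBM39 results in 4OHT. In bulk RNA, fewer cells of a type and less RNA per cell cannot be told apart.

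With siNT, 4OHT raised GCLM, SRXN1 and KEAP1 and lowered HMOX1, SLC7A11, NQO1 and NFE2L2, so that 7 of 8 genes passed the test. A call is an adjusted p under 0.05 (edgeR). Over all genes tested, 39% rose and 39.1% fell in this comparison, so a call is common here, and 3 of 8 higher with 4 of 8 lower is no result particular to these genes. TXNRD1 was the exception, at 494.8 ± 24.8 CPM in DMSO and 493.3 ± 18.98 in 4OHT (log2 fold change −0.00 ± 0.13 SE, adjusted p = 0.975). After siSF3B1 in DMSO, NFE2L2, KEAP1, GCLC, SRXN1 and HMOX1 rose and SLC7A11 fell. That is 5 of 9 higher, where 36.5% of all genes were higher, and 1 of 9 lower, where 36.2% were lower. After siSF3B1 in 4OHT, NFE2L2, KEAP1, SRXN1, NQO1 and HMOX1 rose and 0 fell among the 8 genes tested by edgeR, against 39.4% of all genes higher and 37.6% lower. Of the other 3, GCLM and TXNRD1 had an unadjusted p of 0.0736 and 0.0416 and SLC7A11 of 0.204. After siRBM39 in DMSO, GCLC and HMOX1 rose and SLC7A11 and TXNRD1 fell, where 23.9% of all genes rose and 22.2% fell. After siRBM39 in 4OHT, KEAP1 and HMOX1 rose and SLC7A11 fell among the 8 tested, where 32.2% rose and 24.3% fell. Without the library that stood apart, each of these 8 genes kept its direction and its call, with log2 fold changes of 0.81 for HMOX1, 0.11 for KEAP1, −1.24 for SLC7A11, −0.18 for GCLM and −0.030 for NFE2L2. The siRBM39 effect was not called different between 4OHT and DMSO for any of the 8 (0 by edgeR, DESeq2 or limma-voom, and 0 at an unadjusted p under 0.05), where 7.28% of all genes had a positive and 6.87% a negative difference called. The 4OHT siNT libraries serve as controls in both knockdown comparisons and as the 4OHT arm of the RAS comparison, and the DMSO siNT libraries likewise.

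**Figure D1:**
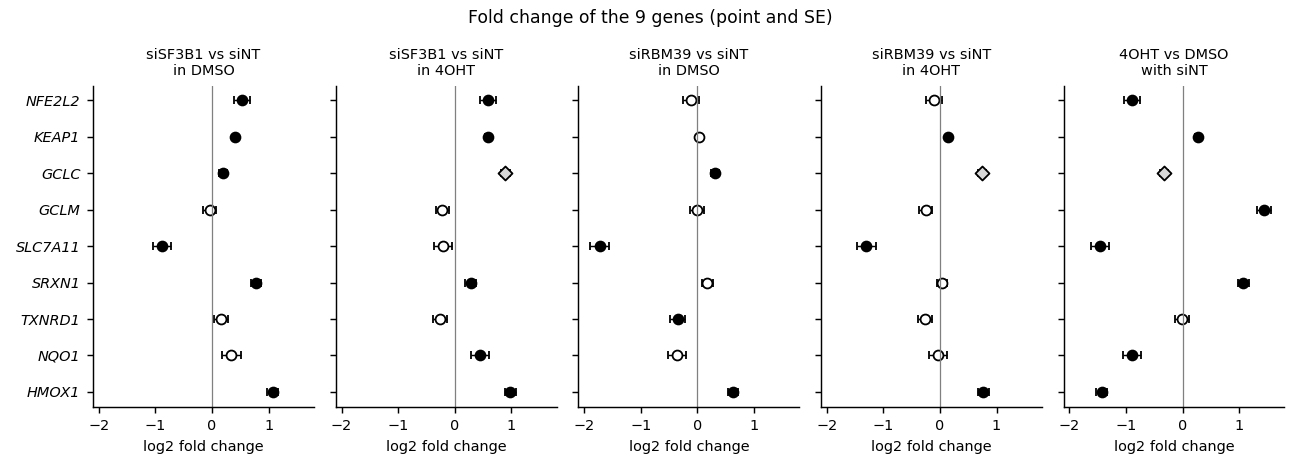
Log2 fold change of each of the 9 genes in 5 comparisons, as points with SE (edgeR, 8 libraries a group). Filled points passed an adjusted p under 0.05, open points did not, and grey diamonds are GCLC in the 3 comparisons that hold the 4OHT siNT libraries, drawn without a test. HMOX1 lies right of 0 in all 4 knockdown panels and SLC7A11 lies left of 0 in all 5 panels.

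NFE2L2 (chr2:178083395-178257484, GRCh37, minus strand) encodes NRF2. Its mRNA ranged from 217.1 to 247.1 CPM in DMSO siNT, with a median of 224.4, and from 115.4 to 128.5 in 4OHT siNT, with a median of 122.5. The groups did not overlap, and NFE2L2 fell by 0.89 on the log2 scale (SE 0.14, adjusted p = 2.7e-07). With siSF3B1 it lay between 272.6 and 358.1 CPM in DMSO (median 333.1) and between 169.5 and 195.1 in 4OHT (median 184.7). Every siSF3B1 library thus exceeded every siNT library of its treatment. In DMSO the rise was 0.52 (SE 0.14, adjusted p = 0.00105). In 4OHT it was 0.59 (SE 0.14, adjusted p = 0.000268), and each siRNA alone passed in both treatments. The difference between those rises was 0.06 (adjusted p = 0.839). With siRBM39 the groups were wide and straddled the siNT libraries: 106.8 to 302.7 CPM in DMSO and 70.4 to 165.7 in 4OHT, with no call in either.

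KEAP1 (chr19:10596801-10614234, minus strand) encodes the sensor that holds NRF2 down. It was 57.9 to 70.3 CPM in DMSO siNT (median 65.7) and 75.2 to 85.8 in 4OHT siNT (median 78.0), a rise of 0.27 (SE 0.04, adjusted p = 2.0e-07). siSF3B1 brought it to 81.3 to 92.4 CPM in DMSO (median 85.7) and 110.7 to 122.5 in 4OHT (median 117.8). The groups did not overlap in either treatment, and 4OHT siSF3B1 was the highest of the 6 groups. In DMSO KEAP1 rose by 0.41 (adjusted p = 7.3e-12), and the 4OHT rise was 0.58 (adjusted p = 9.8e-17). The rise was larger in 4OHT by 0.17 (SE 0.06, adjusted p = 0.0242), among 17.9% of all genes with a positive and 19.9% with a negative difference called. That call was lost without replicate 1, 2 or 3 (adjusted p 0.0781 to 0.176) and with either siRNA against SF3B1 alone. siRBM39 left KEAP1 at 66.4 ± 4.02 CPM in DMSO (adjusted p = 0.602). In 4OHT it was 87.0 ± 7.65 CPM and rose by 0.15 (adjusted p = 0.00302). Without the library that stood apart, where it reached 103.8 CPM, the rise was 0.11 (adjusted p = 0.0121), and in a model of only these groups the adjusted p was 0.0633.

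GCLC (chr6:53362139-53481768, minus strand), the gene chosen by its response, is the catalytic subunit of glutamate-cysteine ligase, which makes the first bond of glutathione. Its lowest, median and highest levels were 81.4, 83.9 and 89.3 CPM in DMSO siNT and 63.8, 67.3 and 69.5 CPM in 4OHT siNT. The log2 difference was −0.33 (SE 0.07), given without a test. In 4OHT siSF3B1 the levels were 118.4, 124.9 and 129.4 CPM, all above the 4OHT siNT libraries that chose the gene. This is 1.86-fold the siNT mean, a log2 difference of 0.90 that was 0.84 with siSF3B1-13 alone and 0.90 with siSF3B1-16 alone. In DMSO, which played no part in the choice, GCLC was 80.4, 96.8 and 109.3 CPM with siSF3B1 and overlapped siNT. The rise there was 0.19 (SE 0.07, adjusted p = 0.0176). It rested on siSF3B1-16, with 105.8 ± 2.50 CPM against 86.2 ± 4.16 with siSF3B1-13 (n = 4 each). With siSF3B1-16 alone it was 0.32 (adjusted p = 0.00107), and with siSF3B1-13 alone 0.04 (adjusted p = 0.707). The call was also lost without replicate 2, 3 or 4 (adjusted p 0.0579 to 0.066). With siRBM39 GCLC was 78.9, 105.8 and 124.6 CPM in DMSO and 91.5, 111.6 and 126.5 CPM in 4OHT. It rose by 0.31 in DMSO (SE 0.07, adjusted p = 0.000401). In 4OHT the log2 difference was 0.74 (SE 0.07), 0.71 with siRBM39-06 alone, 0.75 with siRBM39-08 alone and 0.77 without the library that stood apart, again with no test. In DMSO the rise rested on siRBM39-08 (0.54, adjusted p = 5.2e-09), since it was 0.04 with siRBM39-06 alone (adjusted p = 0.533). The siRBM39 values in 4OHT and DMSO differed by 0.43 (SE 0.10), by 0.67 with siRBM39-06 alone and by 0.21 with siRBM39-08 alone. All of these 4OHT comparisons share the siNT libraries in which GCLC was lowest.

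GCLM (chr1:94350755-94375012, minus strand) is the modifier subunit of the same ligase. It was 20.95 to 24.6 CPM in DMSO siNT (median 22.7) and 58.5 to 63.5 in 4OHT siNT (median 62.0). This rise of 1.44 (SE 0.12, adjusted p = 6.6e-15) was the largest among the 9 genes in that comparison and 2.71-fold in mean level, while the catalytic subunit was lower on average. Neither knockdown passed the test in the model of all groups. With siSF3B1 in 4OHT the log2 fold change was −0.22 (adjusted p = 0.092), and it passed in a model of only these groups (adjusted p = 0.00573) and with a group per siRNA (0.00751). In 4OHT the siSF3B1 libraries split by siRNA, at 45.2 ± 1.33 CPM with siSF3B1-13 and 60.4 ± 2.22 with siSF3B1-16 (n = 4 each), a difference of −0.42 (adjusted p = 0.00408). With siSF3B1-13 alone GCLM fell by 0.47 (adjusted p = 0.00548). With siRBM39 in 4OHT the log2 fold change of −0.25 (adjusted p = 0.0646) passed with limma-voom (0.0403). The lowest value there, 31.4 CPM, was in the library that stood apart.

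SLC7A11 (chr4:139085251-139163503, minus strand) is the light chain of the cystine/glutamate antiporter, which brings in the cystine for glutathione. It was 147.7 to 181.0 CPM in DMSO siNT (median 168.6) and 59.1 to 64.4 in 4OHT siNT (median 59.8), a fall of 1.46 (SE 0.16, adjusted p = 3.5e-11). With siRBM39 it lay between 20.2 and 78.3 CPM in DMSO (median 52.6) and between 17.9 and 33.7 in 4OHT (median 21.6). No siRBM39 library reached the lowest siNT library of its treatment. SLC7A11 fell by 1.72 in DMSO (SE 0.16, adjusted p = 2.5e-12) and by 1.30 in 4OHT (SE 0.16, adjusted p = 4.3e-09). Only 0.0751% and 0.636% of the genes tested had a log2 fold change at or below these values. Each siRNA gave a fall on its own, of 2.50 and 1.22 in DMSO and 1.56 and 1.09 in 4OHT for siRBM39-06 and siRBM39-08. With siSF3B1 it was 77.3 to 99.9 CPM in DMSO (median 91.6), again with no overlap, a fall of 0.88 (SE 0.16, adjusted p = 4.5e-06). In 4OHT siSF3B1 it was 50.4 to 54.3 CPM, below every siNT library, but the log2 fold change of −0.21 (SE 0.16) did not pass (adjusted p = 0.238). A model with only these groups gave an adjusted p of 3.1e-08 for it, and a model with a group per siRNA 0.0235. The siSF3B1 effects differed by 0.67 between 4OHT and DMSO (SE 0.23, adjusted p = 0.0163). This was lost without replicate 2 (adjusted p = 0.074) or 4 (0.0511) and with each siRNA alone.

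**Figure D2:**
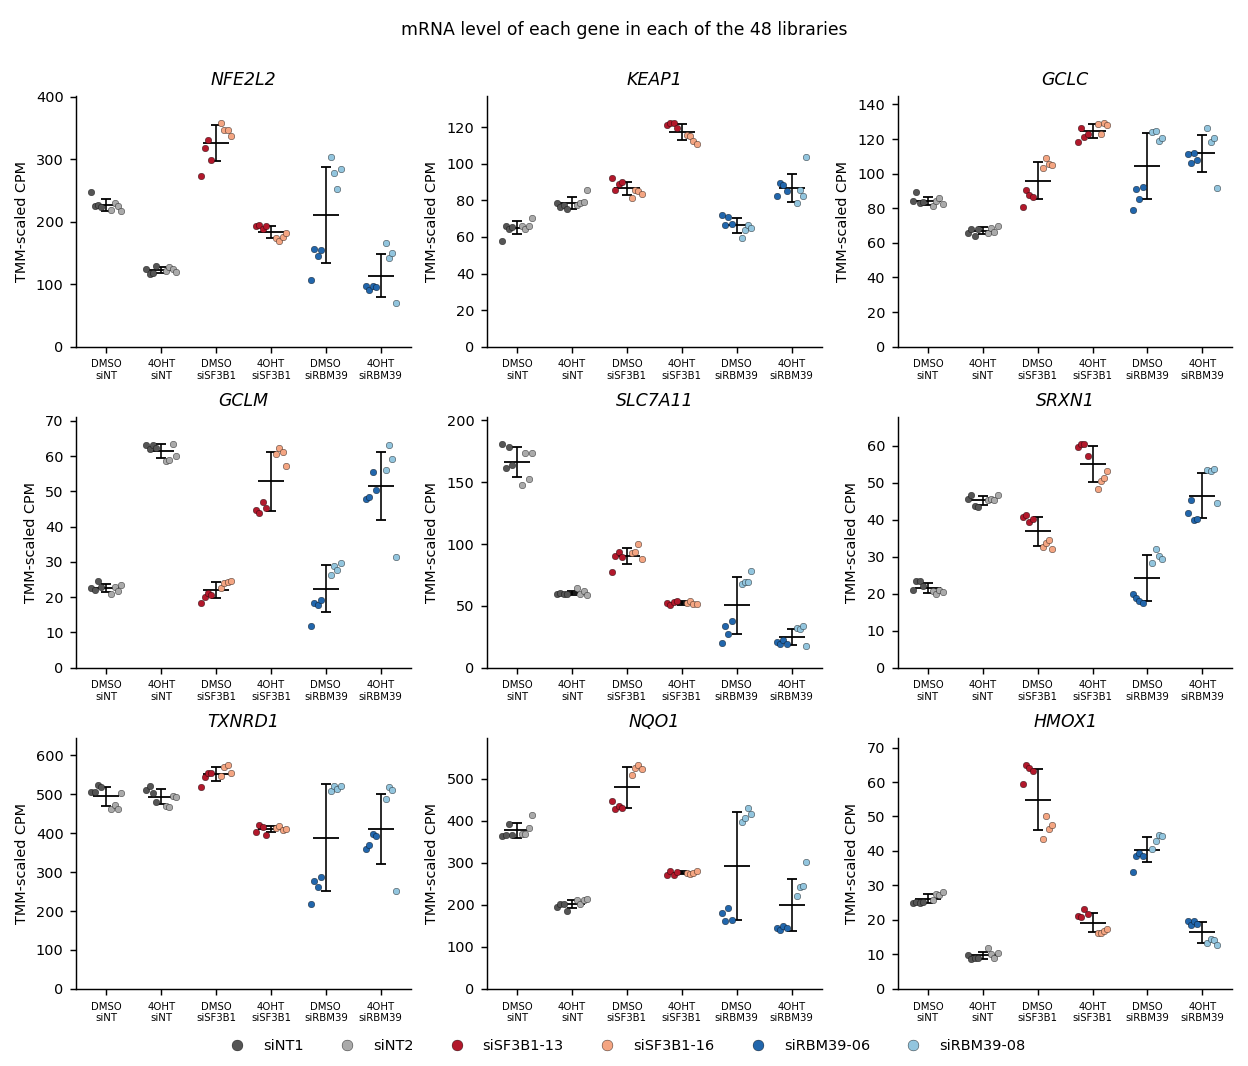
TMM-scaled CPM of each of the 9 genes in each of the 48 libraries, on linear axes from 0, with the mean and SD of each group of 8. Points are coloured by siRNA. In siRBM39 the points of siRBM39-06 and siRBM39-08 separate for NFE2L2, NQO1 and SLC7A11, for example 161.6 to 191.4 against 397.6 to 429.8 CPM for NQO1 in DMSO.

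SRXN1 (chr20:627259-633844, minus strand) is sulfiredoxin, which repairs over-oxidised peroxiredoxins. It was 19.97 to 23.5 CPM in DMSO siNT (median 20.96) and 43.5 to 46.8 in 4OHT siNT (median 45.5), a rise of 1.07 (SE 0.10, adjusted p = 2.9e-14). siSF3B1 raised it to 32.2 to 41.4 CPM in DMSO (median 36.99) and 48.2 to 60.5 in 4OHT (median 55.2), with no overlap in either. The rises were 0.78 (adjusted p = 6.7e-10) and 0.28 (adjusted p = 0.00602), and the effect in 4OHT was smaller by 0.49 (SE 0.13, adjusted p = 0.00251). With siSF3B1-16 alone the rise in 4OHT was 0.14 (adjusted p = 0.296). TXNRD1 (chr12:104609557-104744085, plus strand), cytosolic thioredoxin reductase, was 463.2 to 525.0 CPM in DMSO siNT. It was 395.6 to 419.8 CPM in 4OHT siSF3B1, below every 4OHT siNT library (467.6 to 520.4), yet the log2 fold change of −0.26 missed the threshold (SE 0.13, adjusted p = 0.0538). It passed with DESeq2 (adjusted p = 0.0457) and in the fit without the library that stood apart (0.0333). In DMSO siRBM39 it was 218.4 to 521.8 CPM and fell by 0.35 (SE 0.13, adjusted p = 0.0208). That fall belonged to siRBM39-06 (−0.93, adjusted p = 3.8e-20), since siRBM39-08 alone gave 0.06 (adjusted p = 0.608), and it was lost without replicate 1, 2 or 3.

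NQO1 (chr16:69740899-69760571, minus strand) reduces quinones. It was 364.8 to 414.3 CPM in DMSO siNT (median 368.2) and 186.0 to 215.0 in 4OHT siNT (median 202.4), a fall of 0.90 (SE 0.16, adjusted p = 2.6e-06). With siSF3B1 it was 428.0 to 532.9 CPM in DMSO (median 477.8) and 271.6 to 281.4 in 4OHT (median 275.6), above every siNT library of the same treatment in both. The log2 fold change was 0.34 in DMSO (SE 0.16, adjusted p = 0.0513) and 0.44 in 4OHT (SE 0.16, adjusted p = 0.0116). The first passed with DESeq2 (adjusted p = 0.0473). The second was lost without replicate 1 (adjusted p = 0.0599) and with each siRNA alone (0.41 and 0.42). HMOX1 (chr22:35776354-35790207, plus strand), haem oxygenase, was 24.8 to 28.2 CPM in DMSO siNT (median 25.6) and 8.65 to 11.8 in 4OHT siNT (median 9.43), a fall of 1.43 (SE 0.10, adjusted p = 2.2e-18). It rose in all 4 knockdown comparisons. With siSF3B1 it reached 43.5 to 65.0 CPM in DMSO and 16.2 to 23.2 in 4OHT, rises of 1.07 (SE 0.09, adjusted p = 2.9e-14) and 0.98 (SE 0.10, adjusted p = 9.6e-13). With siRBM39 it reached 33.8 to 44.6 CPM in DMSO and 12.7 to 19.7 in 4OHT, rises of 0.63 (SE 0.09, adjusted p = 2.1e-07) and 0.76 (SE 0.10, adjusted p = 3.5e-09). No knockdown library overlapped the siNT libraries of its treatment. HMOX1 passed the test with each of the 4 siRNAs fitted alone, in both treatments.

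Per transcript length (corrected RPKM, cRPKM), the order of the 9 genes changed with RAS. In DMSO siNT, NQO1 was highest at 150.8 ± 7.52 cRPKM (SD, n = 8), then TXNRD1 at 132.2 ± 6.68 and NFE2L2 at 81.7 ± 2.96. KEAP1, at 25.9 ± 1.48, and GCLC, at 22.7 ± 0.67, overlapped, as did SRXN1, at 18.8 ± 1.19, and SLC7A11, at 18.1 ± 1.29, and GCLM was lowest at 5.005 ± 0.26. In 4OHT siNT, TXNRD1 led at 131.2 ± 5.20 cRPKM, SRXN1 had moved up to 39.5 ± 1.13, and SLC7A11, at 6.55 ± 0.20, and HMOX1, at 5.56 ± 0.59, were lowest and overlapped.

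The siRNAs against RBM39 gave different levels of this pathway. In DMSO, 8 of 9 genes were lower with siRBM39-06 than with siRBM39-08 and 0 were higher, where 25.2% of all genes were lower and 22.4% higher (edgeR, a group per siRNA). NQO1 was 173.9 CPM on average with siRBM39-06 and 412.8 with siRBM39-08, a difference of −1.25 (SE 0.06, adjusted p = 2.3e-21). NFE2L2 differed by −0.99 (SE 0.12), SLC7A11 by −1.27 (SE 0.12) and TXNRD1 by −0.99 (SE 0.10), while KEAP1 differed by 0.12 and did not pass (unadjusted p = 0.0317, adjusted p = 0.063). Against siNT this put NFE2L2 at −0.69 with siRBM39-06 and 0.30 with siRBM39-08, and NQO1 at −1.12 and 0.13. In 4OHT, NQO1, NFE2L2, SLC7A11 and SRXN1 were lower with siRBM39-06 and HMOX1 was higher, 4 and 1 of 9 genes where 17.6% and 14% of all genes were called. RBM39 itself differed by −0.18 in DMSO (adjusted p = 0.00295) and, with 4OHT, by −0.24 (adjusted p = 0.000391). The part of that difference in the others was not tested. The siRNAs against SF3B1 also differed. In DMSO, HMOX1 and SRXN1 were higher and GCLC and NQO1 lower with siSF3B1-13, 2 and 2 of 9 where 18.6% and 18.7% of all genes were called. In 4OHT, HMOX1 and SRXN1 were higher and GCLM lower, 2 and 1 of 8 where 13.8% and 14.1% were called. Between siNT1 and siNT2, edgeR called 0 of 9 genes in either treatment, with 2 in DMSO and 1 in 4OHT at an unadjusted p under 0.05. Over all genes, 0.771% were higher and 0.861% lower in DMSO, and 0.160% and 0.190% in 4OHT. Calls were thus rare between the siNT siRNAs, and 0 of 9 is no result particular to these genes.

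**Figure D3:**
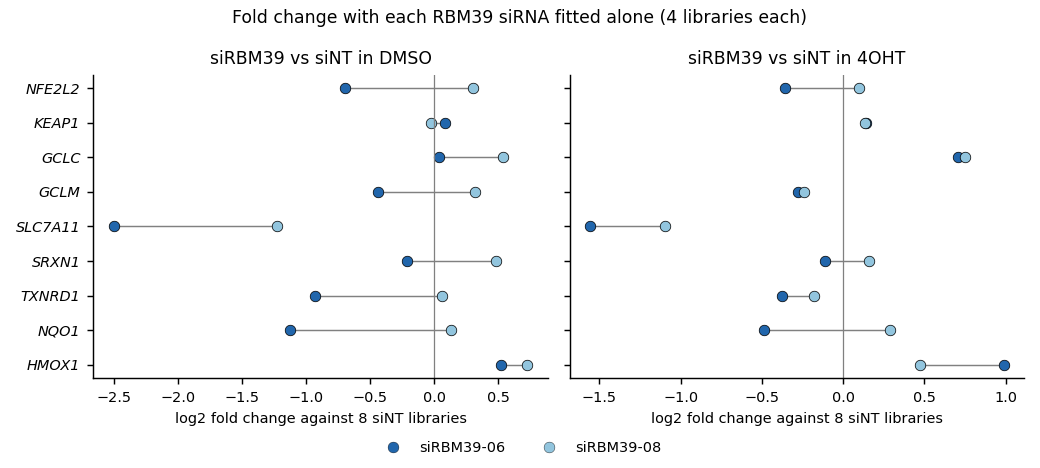
Log2 fold change of each gene against the 8 siNT libraries of the same treatment, fitted with siRBM39-06 alone (dark) or siRBM39-08 alone (light), 4 libraries each, with a line joining them. In DMSO the pair lies on opposite sides of 0 for NFE2L2, GCLM, SRXN1, TXNRD1, NQO1 and KEAP1, and SLC7A11 lies left of 0 with both (−2.50 and −1.22).

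Splicing was read from 140 events listed for the 9 genes, as the percentage spliced in (PSI), the share of informative reads that include a segment. Of these, 14 passed the filters on coverage and range (11 exons and 3 introns of GCLC, TXNRD1, NQO1, NFE2L2 and SRXN1). An event was called with an adjusted p under 0.05 (limma) and a difference of at least 5 points. With siSF3B1 in DMSO 3 exons had a lower PSI, where 25.7% of the 7673 exons tested did: 1 of GCLC and 2 of NQO1. In 4OHT the 2 NQO1 exons were called among the 8 events tested outside GCLC. Those 8 were 2 exons of NQO1, 4 exons of TXNRD1 and introns of NFE2L2 and SRXN1. Over all exons, without introns, 29% were lower. With siRBM39 the NQO1 114-nt exon was called in DMSO, where 7.01% of exons were lower. In 4OHT, siRBM39 called 0 of the 8 events outside GCLC with limma (2 at an unadjusted p under 0.05), where 8.05% of exons were lower. With siNT, 4OHT against DMSO also called 0 of 8 with limma (2 at an unadjusted p under 0.05), where 1.02% of exons were lower.

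The GCLC exon that skipped most is listed at 109 nt. The deposited acceptor event placed 100% of reads on an acceptor 5 bases upstream in 5 of the 6 groups and 99.4% on average in DMSO siSF3B1, where a single library was at 95.2%. That makes the exon 114 nt, as drawn above. Its PSI was 100% in all 16 siNT libraries. In 4OHT siSF3B1 it was 71.0% to 97.3%, with a median of 91.0% and a mean of 87.8 ± 9.16 (SD, n = 8), from 484 inclusion and 60 exclusion reads. The difference from siNT was −15.6 points with siSF3B1-13 and −8.92 with siSF3B1-16, and −7.85 without replicate 2. In DMSO siSF3B1 it was 87.1% to 100%, with a median of 96.5% and a mean of 95.0 ± 4.68, from 397 and 21 reads. The DMSO difference of −5.04 points, which the choice of GCLC did not use, passed (adjusted p = 0.000176, exact permutation p = 0.00699, two-sided). It lies just past the 5-point minimum and fell under it with siSF3B1-16 alone (−3.34) and without replicate 1, 3 or 4 (−4.07 to −4.90). The 82-nt exon of GCLC was at 100% in every siNT and every siRBM39 library. It was 89.8% to 98.6% in 4OHT siSF3B1 (mean 92.8 ± 2.86) and 89.8% to 98.8% in DMSO siSF3B1 (mean 96.0 ± 3.21), with no overlap with siNT in either. The DMSO difference was −3.96 points, under the minimum set for a call. The 82-nt exon met the 5-point range filter only through siSF3B1 libraries, so a test of those libraries is no separate evidence and its p-values are not given. Both GCLC differences were larger in 4OHT, −12.3 and −7.18 points, in the comparison that chose the gene. The 113-nt, 183-nt and 121-nt exons of GCLC stayed between 98.1% and 100% on average in each group.

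The NQO1 114-nt exon fell from 96.3 ± 1.05% to 84.9 ± 2.32% with siSF3B1 in DMSO (SD, n = 8), without overlap (−11.3 points, adjusted p = 9.9e-10). In 4OHT it fell from 95.3 ± 1.73% to 88.8 ± 2.29% (−6.50 points, adjusted p = 1.7e-05), where the groups overlapped. With siRBM39 in DMSO it was 85.8% to 93.0%, below every siNT library (−5.84 points, adjusted p = 7.8e-05). The neighbouring 102-nt exon fell from 92.9 ± 1.38% to 80.6 ± 2.22% with siSF3B1 in DMSO (−12.2 points, adjusted p = 2.2e-08) and from 88.4 ± 3.45% to 81.0 ± 2.90% in 4OHT (−7.34 points, adjusted p = 0.000777). The NQO1 exons share a junction, so their values are not independent. Both differences were larger in DMSO than in 4OHT, and that contrast was not tested. These NQO1 values rest on 1821 to 5708 reads a group.

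GCLM, SLC7A11, KEAP1 and HMOX1 had no event that passed these filters, for GCLM and SLC7A11 for want of reads in some library. Over the 15 exons of the set left out for coverage that varied by at least 5 points and had at least 40 reads in each group, 75 exact permutation tests were run after these values had been seen. Their p-values are two-sided and unadjusted, and 0.000155 is the smallest they can give. The GCLM 66-nt exon had the widest shift with siSF3B1. It was 71.4% to 100% in DMSO siNT (median 86.4%) and 25% to 54.5% in DMSO siSF3B1 (median 38.2%), from 136 inclusion and 25 exclusion reads against 58 and 87. In 4OHT it was 72.5% to 100% with siNT (median 86.7%) and 22.6% to 45% with siSF3B1 (median 25.7%), from 357 and 61 reads against 87 and 232. The groups did not overlap in either treatment (exact p = 0.000155 in both). With siRBM39 it was 95.7 ± 5.12% in DMSO (exact p = 0.0486) and 89.2 ± 9.27% in 4OHT (exact p = 0.608). GCLM mRNA did not pass in these siSF3B1 comparisons in the model of all groups, and the alternatives in which it passed in 4OHT are given above. A further GCLM exon, listed at 150 nt, was at 100% in every siNT and siRBM39 library, at 70.2 ± 22.6% in DMSO siSF3B1 and at 74.4 ± 9.55% in 4OHT siSF3B1. It varied by at least 5 points only through the siSF3B1 libraries, so its p-values are not given. In the GRCh37 annotation this event matched an exon of 203 nt, which is not a multiple of 3. The 85-nt exon of GCLM went from 100% to 90.3% with siSF3B1 in 4OHT and the 202-nt exon, mostly skipped, from 12.1% to 5.03% (exact p = 0.000155 for both).

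The SLC7A11 124-nt exon moved most with siRBM39. In DMSO it was 81.8% to 100% with siNT (median 94.7%) and 21.7% to 71.4% with siRBM39 (median 35%), from 165 inclusion and 9 exclusion reads against 36 and 61 (exact p = 0.000155). By siRNA the exon was 40% to 71.4% there with siRBM39-06 and 21.7% to 30% with siRBM39-08 (n = 4 each), without overlap. In 4OHT it was 76.5% to 100% with siNT (median 100%) and 9.09% to 100% with siRBM39 (median 39.4%), from 89 and 4 reads against 17 and 29 (exact p = 0.0014). The 4OHT means were 49.0% with siRBM39-06 and 34.5% with siRBM39-08, and these libraries overlapped. A single siRBM39 library in 4OHT had as few as 1 read. Without the library that stood apart, the 4OHT difference was −56.5 points for this exon (exact p = 0.0014), against −55.3 with it. With siSF3B1 it was 71.7 ± 16.7% in DMSO (exact p = 0.00528) and 66.2 ± 22.9% in 4OHT (exact p = 0.00389). The SLC7A11 97-nt exon was near 100% with siNT and 71.1% to 77.9% on average in the 4 knockdown groups (exact p 0.0014 to 0.0256). For the 97-nt exon the siRBM39 difference in 4OHT was −25.2 points, and −19.3 without the library that stood apart (exact p = 0.00699 for both). SLC7A11 mRNA was lowest in the siRBM39 groups, where these exons rest on 46 to 97 reads. In DMSO the mRNA was lower with siRBM39-06 (29.55 CPM) than with siRBM39-08 (71.23 CPM), while the 124-nt exon skipped more with siRBM39-08. A link between level and skipping was not tested. KEAP1 exons moved less: with siRBM39 in DMSO the 206-nt exon was 5.46 points lower (exact p = 0.0014) and the 177-nt exon 4.09 points lower. The 177-nt exon varied by at least 5 points only through the DMSO siRBM39 libraries, so its p-value is not given.

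**Figure D4:**
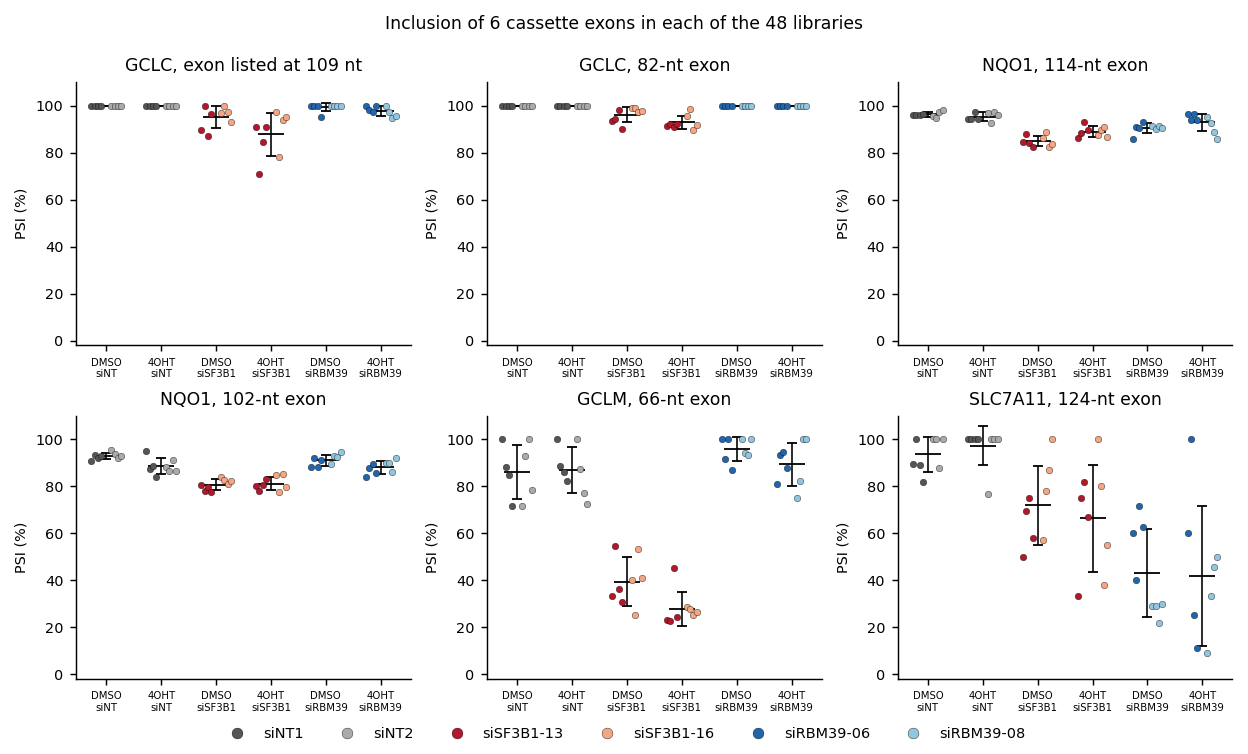
PSI in per cent of 6 exons in each of the 48 libraries, with the mean and SD of each group of 8 and points coloured by siRNA. The GCLM 66-nt exon falls to 39.2% and 27.8% on average with siSF3B1 and the SLC7A11 124-nt exon to 42.97% and 41.75% with siRBM39, while the GCLC exons stay above 70% in every library.

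Among 35 other listed NRF2 targets, 28 were tested. With 4OHT, 4 rose and 19 fell, where 39% of all genes rose and 39.1% fell, with a median of −0.34 against −0.00 for all genes. AKR1B1, an aldo-keto reductase, rose 5.33-fold to 1102 ± 51.0 CPM, while BLVRB, a biliverdin reductase, fell by 1.65. PRDX1, GSS and CBR1 were the other genes that rose. With siSF3B1, 9 rose and 10 fell in DMSO, where 36.5% of all genes rose and 36.2% fell, and 13 rose and 11 fell in 4OHT, where 39.4% rose and 37.6% fell. A call is thus common in these comparisons. SLC3A2, the heavy chain that partners SLC7A11, rose by 1.13 in 4OHT (78.0 ± 6.68 to 171.1 ± 11.6 CPM), and OSGIN1 by 1.11. ABCC1, an exporter of glutathione conjugates, fell by 1.13 (225.8 ± 3.84 to 103.2 ± 3.29 CPM) and PIR by 1.20. With siRBM39, 3 rose and 7 fell in DMSO (23.9% and 22.2% of all genes), with OSGIN1, GSR and TKT as the higher genes. In 4OHT 9 rose and 4 fell (32.2% and 24.3% of all genes). GSS, which completes glutathione, fell by 1.55 (68.2 ± 0.96 to 23.3 ± 3.73 CPM), the exporter ABCC3 by 1.64, CBR1 by 0.26 and IDH1 by 0.24.

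Of 17 other regulators of the pathway, 16 were tested. With 4OHT 8 rose and 4 fell, where 39% of all genes rose and 39.1% fell, and the largest rises were those of the small MAF partners MAFF (2.03, 24.8 ± 1.83 to 101.0 ± 2.70 CPM) and MAFK (1.45). DPP3, a peptidase that can bind KEAP1, fell in all 4 knockdown comparisons. On the log2 scale DPP3 changed with siSF3B1 by −1.997 (DMSO) and −1.95 (4OHT), and with siRBM39 by −1.08 and −1.498. It was the single regulator lower with siRBM39 in 4OHT, where 8 rose (24.3% of all genes lower and 32.2% higher), and with BACH1 it made up the lower genes with siRBM39 in DMSO, where 6 rose (22.2% lower and 23.9% higher). With siSF3B1, 8 rose and 3 fell in DMSO (36.5% and 36.2% of all genes) and 10 rose and 4 fell in 4OHT (39.4% and 37.6%), among them BACH1, a repressor at antioxidant response elements, which fell by 0.50 and 0.22. Of 20 enzymes that remove peroxide or superoxide, 19 were tested. With 4OHT 7 rose and 8 fell, again beside 39% and 39.1% of all genes, led by mitochondrial SOD2 (higher by 2.43, 65.97 ± 2.56 to 355.8 ± 10.2 CPM) and by PRDX6 (lower by 1.82) and GPX3 (lower by 3.99). With siSF3B1 4 rose and 6 fell in DMSO (36.5% and 36.2% of all genes) and 8 rose and 3 fell in 4OHT (39.4% and 37.6%). With siRBM39 3 rose and 1 fell in DMSO (23.9% and 22.2% of all genes) and 7 rose and 1 fell in 4OHT (32.2% and 24.3%), the lower gene being GLRX in both. Fibroblast markers also moved with 4OHT, 9 of 10 lower and 0 higher by edgeR (COL1A2 fell by 3.39), beside each of these lists, and their part was not tested.

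Across the 48 libraries the genes most like GCLC were DNAJC27 (Pearson's r = 0.903), NLK (0.895), FTSJD1 (0.882), TRAF6 (0.856) and THRAP3 (0.855). Among the other 8 genes of the set, r ran from −0.26 for SLC7A11 to 0.419 for KEAP1. These values describe 48 libraries that share groups and siNT controls.

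Promoter sequences of 7 of the 9 genes were in RefSeq's set for GRCh38.p14, from 250 bases before to 50 bases after each start. The core of the antioxidant response element, TGACNNNGC, was searched on both strands. GCLM, TXNRD1 and KEAP1 held a match in at least 1 promoter. Of all 35116 promoters 13.3% held a match, which is a share of promoters and not of genes. TXNRD1, KEAP1 and NFE2L2 had more than a single promoter searched, and a KEAP1 promoter held no match. GCLM held 1 match, KEAP1 2 and TXNRD1 3, while SRXN1, NQO1, NFE2L2 and GCLC held none in these windows. With 4OHT, GCLM and KEAP1 rose and TXNRD1 did not pass the test, and SRXN1 rose as well. All 6 matches are shown, on the strand of the gene with the match in capitals and 10 bases on each side:
GCLM, chr1:93909456-93909464: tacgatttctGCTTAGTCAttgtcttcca
KEAP1, chr19:10502817-10502825: acttttattgTGACACGGCgggcgcccgg
KEAP1, chr19:10502794-10502802: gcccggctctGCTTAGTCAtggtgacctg
TXNRD1, chr12:104215680-104215688: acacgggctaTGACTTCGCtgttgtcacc
TXNRD1, chr12:104215771-104215779: gcgtccttcgGCTCCGTCAgttcccacag
TXNRD1, chr12:104286930-104286938: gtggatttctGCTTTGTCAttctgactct
A match that begins with GC lies on the opposite strand. A match is a description of these letters and no measure of binding.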

How the data were processed

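RNA from 48 libraries of IMR90 ER:RAS cells was prepared with an mRNA capture kit and sequenced. The authors aligned reads with vast-tools and its hg19 VAST-DB library and deposited raw gene counts with no normalisation. The same table holds cRPKM, an RPKM that the authors corrected for mappable length. Splicing was deposited by the authors as PSI in percent with inclusion and exclusion reads. The authors' normalised CPM table was not used. The event table names hg19 but holds GRCh38 positions. Exons were therefore matched to the GRCh37 annotation (GENCODE) by their length and that of the flanking introns, and promoters came from RefSeq on GRCh38.p14. Whether counting used strand is not given in the sources used here, so overlapping antisense reads cannot be told apart.

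Groups were taken from the labels. In 4 libraries of siNT2 in 4OHT a characteristic reads siNT1, and the title was followed, which leaves the group as it was. The labels do not say that replicates were separate cultures, so p-values measure the spread between these libraries, which may be technical. No pair of libraries of an siRNA and treatment agreed within sampling noise (lowest chi-square per degree of freedom 2.00 over 72 pairs).

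Genes with at least 10000 counts in total (9991) were tested with edgeR 4.0.16 in R 4.3.3 (TMM scaling, quasi-likelihood test, a mean for each of 6 groups, Benjamini-Hochberg adjustment over all genes, threshold 0.05). Fold changes are log2 with the SE. The siRNAs of a target were compared in a model with a group per siRNA. The 12921 exons and introns with a PSI and at least very low coverage in every library, a range of at least 5 points and, where the event was an intron, no imbalance between its junctions (p 0.05 or more) were tested with limma 3.58.1 on logit-transformed PSI (0.01 + 0.98 times the fraction). DESeq2 1.42.0, limma-voom, other filters, single siRNAs, left-out replicates and a replicate block were alternatives. Scripts were tested on simulated data. Exact permutation tests went through every split of the libraries with numpy 2.4.6, and figures used matplotlib 3.10.9.

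The members and the gene lists were chosen with earlier results of these data known. The text names the 9 genes, SF3B1 and RBM39, members of other lists where at most 5 passed in a direction or among the 2 largest rises and falls, the 5 genes most correlated with GCLC, and events called or belonging to GCLC. A list member that this rule would name is not reported here. The low-coverage exons, their tests and the comparison between siRNAs were added after the data were seen, as was leaving GCLC untested in all comparisons that hold the 4OHT siNT libraries.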

Additional observations from a re-analysis of the deposited data

Results flagged for a closer look

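Single libraries far from the other 7 of their group were found in 11 of 96 groups by Dixon's ratio, where chance gives about 1 in 20. For mRNA these were NFE2L2 in DMSO siNT1 replicate 1 (247 CPM), KEAP1 in 4OHT siNT2 replicate 4 (85.8 CPM) and KEAP1 in 4OHT siRBM39-08 replicate 4 (104 CPM), the library with the low SF3B1 level. For PSI, the GCLC exon listed at 109 nt was 95.3% in DMSO siRBM39-06 replicate 4. The GCLC 113-nt exon was 90.9% in 4OHT siNT1 replicate 4 and 96.9% in 4OHT siSF3B1-16 replicate 1. The GCLC 183-nt exon was 88.1% and 97.2% in the same libraries and 97.3% in DMSO siRBM39-08 replicate 1. The GCLC 121-nt exon was 93.8% in DMSO siSF3B1-13 replicate 2, and the NQO1 114-nt exon was 85.8% in DMSO siRBM39-06 replicate 1. Most of these PSI groups otherwise stand at 100%, where a few skipping reads set a library apart.

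The knockdown effect differed between 4OHT and DMSO, as log2 differences in edgeR, for KEAP1 (0.17), SLC7A11 (0.67) and SRXN1 (−0.49) with siSF3B1. Between the siRNAs of a target, siRBM39-06 minus siRBM39-08 in DMSO was −0.49 for GCLC, −0.75 for GCLM, −0.20 for HMOX1, −0.99 for NFE2L2, −1.27 for SLC7A11, −0.69 for SRXN1, −1.25 for NQO1 and −0.99 for TXNRD1. In 4OHT it was 0.49 for HMOX1, −0.48 for NFE2L2, −0.48 for SLC7A11, −0.29 for SRXN1 and −0.80 for NQO1. siSF3B1-13 minus siSF3B1-16 was −0.30 for GCLC, 0.43 for HMOX1, 0.28 for SRXN1 and −0.27 for NQO1 in DMSO. In 4OHT it was −0.42 for GCLM, 0.38 for HMOX1 and 0.23 for SRXN1.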

How the results depend on the processing

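The counts in this section show how calls move with the setting. The share of all genes or events called in each alternative setting is not given beside them. A changed count is therefore no result about the members or the listed targets. Members called numbered 5 with siSF3B1 in 4OHT. They were 8 in a model limited to the groups compared, 8 with a group per siRNA, and 3 with siSF3B1-16, siNT1 or siNT2 alone. With siRBM39 they went from 4 to 7 with siRBM39-06 alone in DMSO, and from 3 to 5 with limma-voom, 6 with a group per siRNA and 7 with siRBM39-06 alone in 4OHT. Differences of the siSF3B1 effect between treatments (3 called) numbered 1, 1, 0 and 1 with siSF3B1-13, siSF3B1-16, siNT1 and siNT2 alone, and 1 to 4 without each replicate. Those of siRBM39 (0 called by edgeR) numbered 2 with a group per siRNA and 5 and 2 with siRBM39-06 and siRBM39-08. Other NRF2 targets called with siRBM39 in DMSO went from 10 to 16 with siRBM39-06 alone. Events called by limma (3, 2, 1 and 0 for siSF3B1 and siRBM39 in DMSO and 4OHT) were 9, 5, 2 and 1 with no minimum difference and 0 with a 10-point minimum in 4OHT siSF3B1 and DMSO siRBM39. 4OHT against DMSO had 0 to 1 without each replicate.

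Signs that turned were, with siRBM39-08 alone: GCLM 0.32, TXNRD1 0.064, NQO1 0.13, NFE2L2 0.30 and KEAP1 −0.027 in DMSO, NQO1 0.29 and NFE2L2 0.10 in 4OHT, TXNRD1 −0.24, HMOX1 −0.25 and NFE2L2 −0.21 for the difference between treatments, and 0.99 points for the NQO1 102-nt exon in 4OHT. With siRBM39-06 alone: SRXN1 −0.21 in DMSO and −0.11 in 4OHT, and GCLM 0.16 and SRXN1 0.10 for the difference. With siSF3B1-16 alone: GCLM 0.065 in DMSO, and NQO1 −0.040 and NFE2L2 −0.11 for the difference. With siNT2 alone: GCLM 0.012 and KEAP1 −0.012 (siRBM39, DMSO), TXNRD1 0.012 (4OHT against DMSO) and NFE2L2 −0.024 (siRBM39 difference). With at least 1 count in total: GCLM 0.012 (siSF3B1, DMSO) and 0.0032 (siRBM39, DMSO), TXNRD1 0.070 (4OHT against DMSO) and NFE2L2 −0.017 (siRBM39 difference), the last −0.022 with only the groups compared. With at least 5 counts in each library TXNRD1 was 0.040 for 4OHT against DMSO. Without each replicate in turn, GCLM (siRBM39, DMSO) ran from −0.0435 to 0.0414, TXNRD1 (4OHT against DMSO) from −0.0119 to 0.0092, NFE2L2 (siRBM39) from −0.21 to 0.024 in 4OHT and from −0.12 to 0.17 for the difference, and the NQO1 102-nt exon (siRBM39, 4OHT) from −1.67 to 1.05 points. The cause was not tested. Replicate numbers did not pair the libraries: same-numbered libraries had a mean correlation of 0.01 and 15 of 48 correlated best with their own number. With a replicate block, members called stayed 6, 5, 4, 3 and 7 in the 5 comparisons, and NFE2L2 (siRBM39 difference) was −0.0036. DESeq2 and limma-voom each added 3 calls and kept the direction and call of 64 other results. The low-coverage exons rest on few reads in some libraries.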
